A study of Mus musculus with 6 samples.

Results

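The tumor necrosis factor (TNF) superfamily and its receptor superfamily were followed through the transcriptome of mouse regulatory T (Treg) cells, a T cell type that restrains immune responses. Members were chosen by gene symbol alone, as every gene whose symbol starts with Tnfsf or Tnfrsf and a digit, together with Tnf, Lta, Ltb, Ltbr, Fas, Fasl, Cd40, Cd40lg, Cd27, Cd70, Eda2r, Ngfr, Eda and Edar. Of 22939 genes in the table, 43 matched, of which 16 encode ligands, 26 encode receptors and 1 (Tnfsf13os) is an RNA on the opposite strand of a ligand gene. Edar was not analysed here.

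RNA-seq was done on 6 libraries, 3 of control (ctrl-Treg) cells and 3 of cells exposed to sorafenib (Sora), an oral kinase inhibitor given for hepatocellular carcinoma. According to the methods of the study, naive CD4+ T cells came from C57BL/6J-background mice with a Foxp3-GFP knock-in, were stimulated on plates with anti-CD3 and anti-CD28 antibodies in the presence of TGF-β1, anti-IFN-γ and anti-IL4, and were then sorted for GFP. These are therefore Treg cells made in culture from a reporter strain, and both groups share the strain, the stimulation and the sort. The age of these mice, the Sora dose and the exposure time of the sequenced cells were not given in the sources used here, nor was it stated whether the 3 libraries of a group came from separate cultures or animals, so that p-values measure the spread between these libraries only.

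TNF superfamily ligands are mostly trimeric transmembrane proteins that can be cleaved from the cell surface, and they bind receptors with cysteine-rich repeats outside the cell. Receptors with a death domain can recruit FADD and caspase-8 and start apoptosis, costimulatory receptors recruit TRAF adaptors and activate NF-κB, and decoy receptors bind ligand without a functional signaling tail. Treg cells are known for high levels of GITR (Tnfrsf18), OX40 (Tnfrsf4), 4-1BB (Tnfrsf9) and TNFR2 (Tnfrsf1b).

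Total counts ranged from 30727686 to 37717324 per library, and a floor of 3 counts corresponded to 0.0762 to 0.0988 CPM (counts scaled to a common library size with TMM factors), which covers counting error only. The labelled cell type was checked on Cd3e, Cd4, Foxp3, Il2ra, Ctla4 and Ikzf2. Their summed level ran from 3605 to 3657 CPM in ctrl-Treg cells and from 6301 to 6431 CPM in Sora-Treg cells. Of the 6 genes 5 were higher, beside 29.7% of all tested genes. Most of the rise of the sum came from Il2ra (mean 1934 CPM in ctrl-Treg and 3795 CPM in Sora-Treg cells) and Ctla4 (383 and 1108 CPM). The log2 fold change was 0.60 for Cd3e but only 0.06 for Cd4 and 0.07 for Foxp3, and Ikzf2 did not pass the test. Foxp3 itself was at 269, 254 and 252 CPM in the control libraries, against 278, 268 and 271 CPM in the Sora-Treg libraries. Myeloid markers (Lyz2, Csf1r, Itgam, Adgre1, Cd68, Cd14 and Spi1) summed to 93.0, 92.5 and 24.7 CPM in ctrl-Treg cells and to 22.4, 42.1 and 20.7 CPM in Sora-Treg cells, so control libraries 1 and 2 stood apart. Of 4 stromal and endothelial markers (Pecam1, Cdh5, Col1a1 and Pdgfra) 2 were tested, of which 1 was higher and 1 did not pass the test. Cdh5 and Pdgfra were near 0 in all libraries. Pecam1, which T cells can also express, went from 11.4 ± 1.34 CPM to 39.4 ± 1.25 CPM (mean ± SD, n = 3 libraries each). Because of the myeloid markers, counts of members are also given without control libraries 1 and 2.

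In Sora-Treg cells 4 of 8 costimulatory receptors were higher and 2 lower, and 3 of 4 decoy receptors were higher. In contrast, 6 of 7 costimulatory ligands were lower, as were 3 of 4 tested receptors of the death domain group, in which Tnfrsf25 was not counted. Over all tested genes 29.7% were higher and 29.9% lower, all at an adjusted p below 0.05. A gene was called a differentially expressed gene (DEG) when it changed by over 2-fold with an adjusted p below 0.05 in edgeR's quasi-likelihood test over 13463 tested genes. Of 38 members that passed the filter on low counts, 5 were DEGs higher in Sora-Treg cells, beside 6.3% of all tested genes, and 11 were DEGs lower, beside 4.97% of all tested genes. Without the fold limit, 12 members were higher (29.7% of all tested genes) and 17 were lower (29.9% of all tested genes). The remaining 9 did not pass the test. In 29 of the 38 members the 3 libraries of one group did not overlap the 3 of the other, beside 63.7% of all tested genes. With control libraries 1 and 2 left out, an alternative chosen after the data were seen, 6 members were DEGs higher and 11 were DEGs lower. That fit leaves control library 3 alone in its group, so the spread comes from the Sora-Treg libraries and the lone control library is assumed to vary like them.

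The median log2 fold change of the 38 members was -0.08, beside 0.00 over all tested genes, whereas the median of its absolute value was 0.81, beside 0.28. Among 14 tested ligands 3 were higher and 8 lower, with 1 and 4 of them DEGs. Among 24 tested receptors 9 were higher and 9 lower, with 4 and 7 of them DEGs. Over all tested genes 29.7% were higher and 29.9% lower, and 6.3% and 4.97% were DEGs in these directions. The 5 DEGs that rose were Fasl, Tnfrsf8, Tnfrsf9, Tnfrsf11b and Tnfrsf23. The 11 that fell were Tnf, Cd70, Tnfsf4, Tnfsf15, Fas, Tnfrsf10b, Tnfrsf21, Cd40, Tnfrsf11a, Tnfrsf19 and Eda2r.

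**Figure D1:**
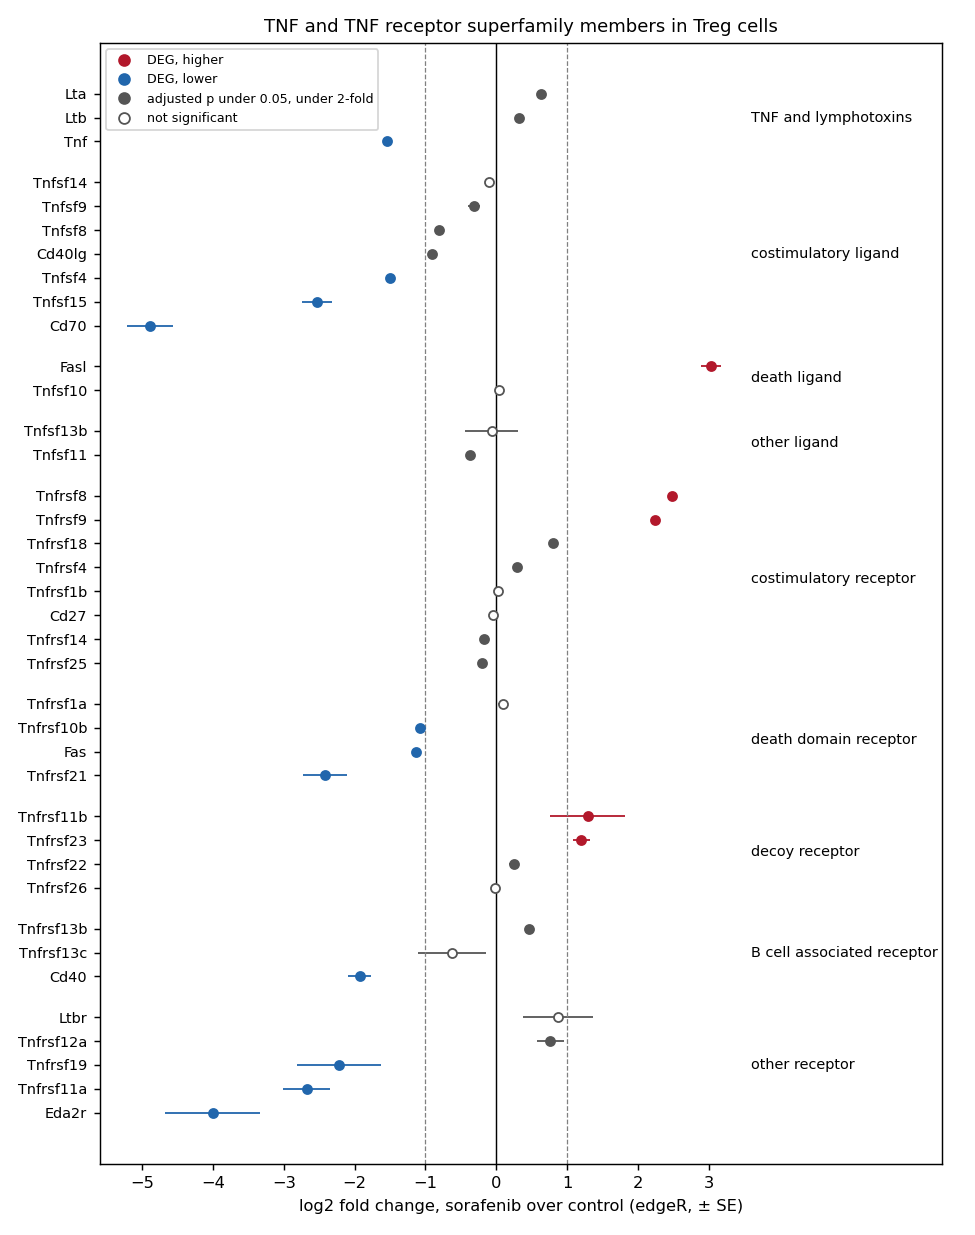
Log2 fold change (Sora-Treg over ctrl-Treg cells, 3 libraries each) of the 38 tested members on the x axis, by gene and role on the y axis. Bars are standard errors derived from the edgeR F test. Dashed lines mark a 2-fold change. Cd70 lies farthest to the left at -4.89 and Fasl farthest to the right at 3.04, and the costimulatory ligands all lie at or below zero.

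The costimulatory receptors Tnfrsf9 and Tnfrsf8 gave the clearest increase. Their promoters, the 250 bases before a transcript start in RefSeq (build GRCm38.p6), are shown because these were the only members whose window held both an NF-κB (kappaB) motif and an AP-1 motif (TGANTCA). The Tnfrsf9 window lies at chr4:150927749-150927998 on the plus strand and precedes the second of the 2 starts listed for the gene, and the Tnfrsf8 window lies at chr4:145315165-145315414 on the minus strand. Both are printed in the direction of transcription, with the motif matches in capitals.
Tnfrsf9: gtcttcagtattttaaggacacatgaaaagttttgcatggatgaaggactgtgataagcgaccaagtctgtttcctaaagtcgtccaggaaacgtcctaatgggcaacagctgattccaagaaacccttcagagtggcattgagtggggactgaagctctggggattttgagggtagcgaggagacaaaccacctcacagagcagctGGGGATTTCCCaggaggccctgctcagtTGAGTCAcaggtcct
Tnfrsf8: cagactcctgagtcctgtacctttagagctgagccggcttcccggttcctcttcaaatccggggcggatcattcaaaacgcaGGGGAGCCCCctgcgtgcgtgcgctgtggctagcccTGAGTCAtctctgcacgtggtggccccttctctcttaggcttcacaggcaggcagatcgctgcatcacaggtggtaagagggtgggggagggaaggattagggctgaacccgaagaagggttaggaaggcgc

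Motifs were searched by letters on both strands. In Tnfrsf9, 2 kappaB matches that overlap in all but 1 base began 43 and 42 bases before the start and the AP-1 match began 15 bases before it. In Tnfrsf8 the kappaB match began 168 bases and the AP-1 match 132 bases before the start. Of 27025 genes with at least 1 RefSeq window of 250 bases, 4.46% held a kappaB match in any of their windows, 7.82% an AP-1 match and 0.255% both in the same window. Of 32 members with a window, 3 held a kappaB match (Ltb, Tnfrsf8 and Tnfrsf9) and 5 an AP-1 match (Fas, Tnfrsf8, Tnfrsf9, Tnfsf13b and Tnfsf14). The FOXO site GTAAACA was in the windows of 3.54% of these genes and of 2 members, Eda2r and Ltb. A match describes these letters only, and factor binding was not measured.

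Tnfrsf9 encodes 4-1BB, a receptor that costimulates activated T cells. It was at 503, 510.0 and 502 CPM in the control libraries, against 2366, 2385 and 2387 CPM in the Sora-Treg libraries. Every Sora-Treg library was above every ctrl-Treg library, with little spread inside either group. The difference was 4.71-fold (log2 2.24 ± 0.02, standard error; edgeR adjusted p = 1.32e-26). By p-value Tnfrsf9 ranked 4 among all 13463 tested genes.

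Tnfrsf8 encodes CD30, a receptor of activated lymphocytes. Its levels were 42.8, 39.2 and 43.4 CPM in ctrl-Treg cells and 235, 229 and 239 CPM in Sora-Treg cells, again with no overlap. Its rise was 5.61-fold (log2 2.49 ± 0.04; edgeR adjusted p = 4.92e-23). On the length-corrected FPKM scale, Tnfrsf8 went from rank 4611 to rank 838 among 22939 genes and Tnfrsf9 from rank 212 to rank 89.

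Tnfrsf18, which encodes the Treg-associated receptor GITR, rose less. It had 284, 289.8 and 273 CPM in ctrl-Treg cells and 499, 479 and 504 CPM in Sora-Treg cells, 1.75-fold higher (log2 0.81 ± 0.03; edgeR adjusted p = 1.54e-16). Tnfrsf4, the OX40 gene, went from 328, 337 and 329 CPM in ctrl-Treg to 419.9, 382 and 412 CPM in Sora-Treg cells, a change of 1.22-fold (log2 0.29 ± 0.03; edgeR adjusted p = 5.15e-08). Neither gene overlapped between groups. Tnfrsf4 shares part of its position with Sdf4, whose counts ran from 15876 to 40434 per library and whose log2 fold change was 1.18, and Tnfrsf18 with Gm16008, which had at most 192 counts. Whether strand was used in counting was not stated, so reads of such overlapping genes cannot be told apart with certainty.

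Of the other 4 costimulatory receptors, 2 were lower (29.9% of all tested genes) and 2 did not pass the test. Tnfrsf25, which encodes the receptor DR3 for the ligand TL1A and also has a death domain, was at 59.4, 61.2 and 58.4 CPM in ctrl-Treg and 51.2, 50.6 and 53.5 CPM in Sora-Treg cells (log2 -0.20 ± 0.04). Tnfrsf14, which encodes HVEM, was at 98.0, 95.9 and 95.9 CPM in ctrl-Treg and 83.6, 91.8 and 83.2 CPM in Sora-Treg cells (log2 -0.17 ± 0.04), and its call was lost in 1 of 17 alternatives, the one without control libraries 1 and 2 (log2 -0.15). Cd27 had 97.3, 98.8 and 100.1 CPM in ctrl-Treg and 96.9, 93.0 and 97.1 CPM in Sora-Treg cells with a log2 fold change of -0.05 ± 0.04, which did not pass the test here but did in 4 of 17 alternatives, at -0.16 when libraries were scaled by their totals alone, and it overlaps E130112N10Rik, which had at most 255 counts. Tnfrsf1b, the gene of TNFR2, had 190.3, 190.3 and 188 CPM in ctrl-Treg and 194, 189 and 197 CPM in Sora-Treg cells, and its log2 fold change of 0.03 ± 0.03 turned to -0.08 with scaling by totals alone, which moved the median of all genes to -0.12.

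**Figure D2:**
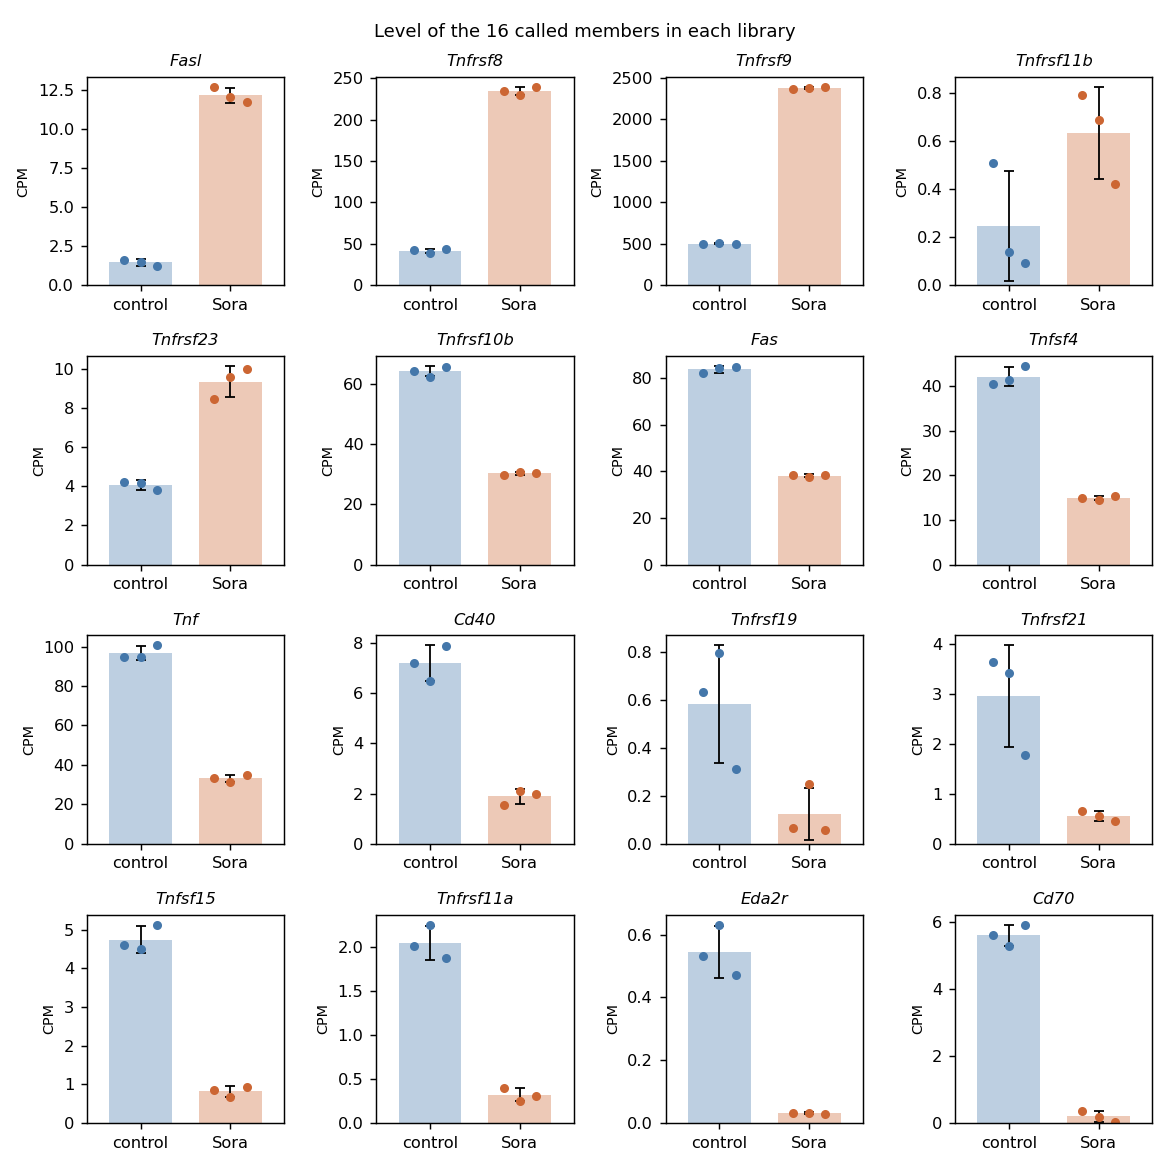
Level (CPM on a linear y axis from 0) of the 16 members called DEG in the 3 ctrl-Treg (control) and 3 Sora-Treg (Sora) libraries on the x axis, as points, with bars for the mean and error bars for the SD. Libraries of the groups are apart in 15 panels and overlap in Tnfrsf11b, where control library 1 lies above Sora library 3.

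FPKM values divide each count by gene length and library total, so they can be compared between genes. The receptors together summed to 1083, 1093 and 1071 FPKM in ctrl-Treg cells and to 2074, 2023 and 2076 FPKM in Sora-Treg cells. In ctrl-Treg cells Tnfrsf18 made up 26.3% ± 0.545 (SD, n = 3) of this sum, Tnfrsf4 24.8% ± 0.164 and Tnfrsf9 20.7% ± 0.0597. In Sora-Treg cells Tnfrsf9 made up 47.3% ± 0.749, Tnfrsf18 22.4% ± 0.291 and Tnfrsf4 14.7% ± 0.550. Tnfrsf9 thus moved from rank 3 to rank 1 among receptors. The ratio of Tnfrsf9 to Tnfrsf4 within a library went from 0.832 ± 0.00513 to 3.22 ± 0.173 without overlap, for which the exact two-sided permutation test gave p = 0.1, the smallest p that 3 against 3 libraries allow.

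**Figure D3:**
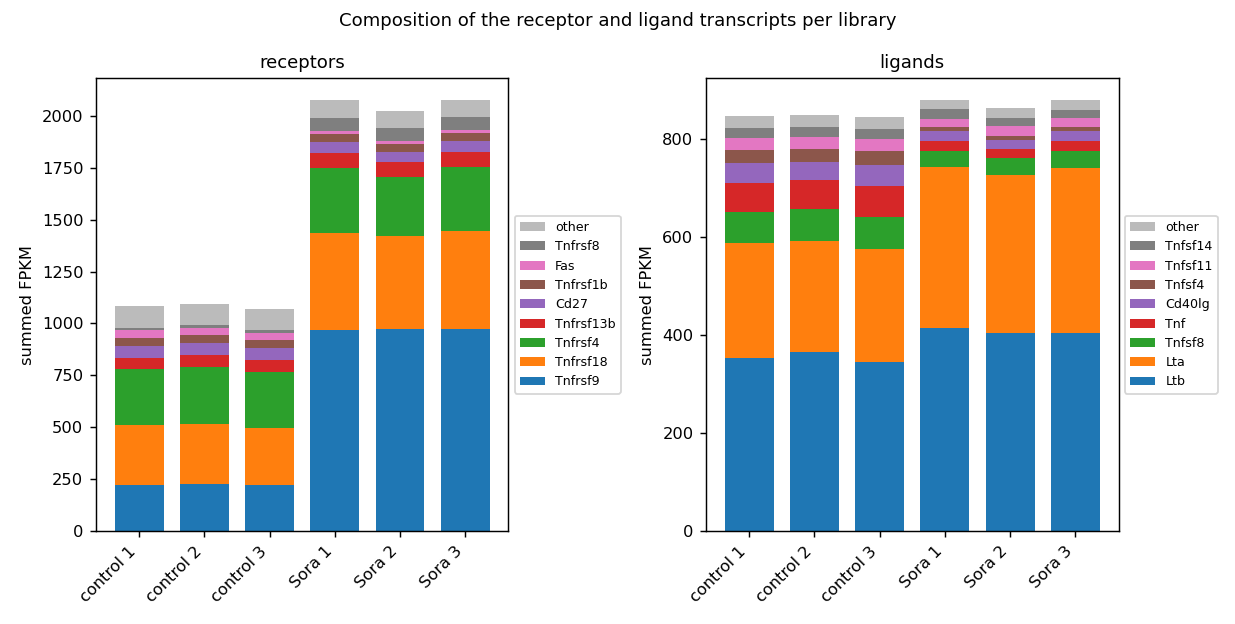
Summed FPKM on the y axis of the receptors (left) and ligands (right) in each library on the x axis, with the 8 members named in each legend as colored segments and the rest in grey. The receptor bars reach 1071 to 1093 FPKM in ctrl-Treg libraries and 2023 to 2076 FPKM in Sora-Treg libraries, with Tnfrsf9 as the segment that grew most, whereas the ligand bars run only from 844 to 879 FPKM over all 6 libraries.

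The ligands together summed to 846, 849 and 844 FPKM in ctrl-Treg cells and to 879, 861 and 878 FPKM in Sora-Treg cells, while their shares of this sum shifted more. TNF and the lymphotoxins, which lie side by side on chromosome 17, moved apart. Tnf, the gene of the founding proinflammatory cytokine, had 94.8, 94.6 and 101 CPM in ctrl-Treg cells and 33.4, 31.2 and 34.8 CPM in Sora-Treg cells, 2.91-fold lower (log2 -1.54 ± 0.05; edgeR adjusted p = 6.02e-18). No Sora-Treg library reached the lowest ctrl-Treg library.

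Lta, which encodes lymphotoxin-α, had 364, 353 and 358 CPM in ctrl-Treg cells and 555, 544 and 569 CPM in Sora-Treg cells, 1.55-fold higher (log2 0.63 ± 0.03; edgeR adjusted p = 2.74e-15). Ltb, which encodes the membrane-bound partner lymphotoxin-β, had 369.8, 385 and 364 CPM in ctrl-Treg and 471, 462 and 461 CPM in Sora-Treg cells, 1.25-fold higher (log2 0.32 ± 0.03; edgeR adjusted p = 1.10e-09). In both genes all Sora-Treg libraries were above all ctrl-Treg libraries. As shares of summed ligand FPKM, Tnf went from 7.19% ± 0.266 to 2.21% ± 0.0977, Lta from 27.1% ± 0.556 to 37.6% ± 0.551 and Ltb from 41.9% ± 1.07 to 46.7% ± 0.581 (SD, n = 3 each). The ratio of Lta to Tnf in FPKM was 3.90, 3.79 and 3.62 in the control libraries, against 16.9, 17.7 and 16.6 in the Sora-Treg libraries.

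In GRCm38.p6 Tnf lies 3.06 kb from Ltb and 1.16 kb from Lta. The 250 bases before the transcript starts of Tnf (chr17:35202008-35202257) and Lta (chr17:35205352-35205601), both on the minus strand, are shown because these close neighbors moved in opposite directions. Neither window held a kappaB, AP-1 or FOXO match, so no letters are in capitals, which says only that these letters are absent from these windows.
Tnf: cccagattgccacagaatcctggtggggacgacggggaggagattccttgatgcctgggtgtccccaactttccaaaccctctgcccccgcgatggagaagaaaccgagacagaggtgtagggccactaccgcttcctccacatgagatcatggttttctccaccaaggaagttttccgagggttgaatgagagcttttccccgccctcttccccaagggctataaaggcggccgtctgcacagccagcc
Lta: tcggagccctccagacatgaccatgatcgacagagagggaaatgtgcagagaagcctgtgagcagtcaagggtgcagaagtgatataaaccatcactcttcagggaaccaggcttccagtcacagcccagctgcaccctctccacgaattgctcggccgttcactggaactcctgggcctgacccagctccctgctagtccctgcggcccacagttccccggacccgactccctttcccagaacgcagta

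Costimulatory ligands are known mainly from antigen-presenting cells but are also made by activated T cells. By edgeR they were lower in 6 of 7 and higher in none, beside 29.9% and 29.7% of all tested genes. Their sum fell from 167 to 175 FPKM in ctrl-Treg cells to 87.3 to 88.9 FPKM in Sora-Treg cells. Cd70, the ligand of CD27, showed the largest decrease of all 38 tested members, with 221, 192 and 189 counts in the control libraries, against 11, 6 and 1 counts in the Sora-Treg libraries. The ratio of summed counts, corrected for library totals, was 0.0304 (95% exact counting interval 0.0179 to 0.0484), and the fitted log2 fold change was -4.89 ± 0.33 (edgeR adjusted p = 1.04e-11).

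Tnfsf4, which encodes OX40 ligand, had 40.4, 41.4 and 44.5 CPM in ctrl-Treg cells and 14.9, 14.4 and 15.5 CPM in Sora-Treg cells, 2.82-fold lower (log2 -1.49 ± 0.06; edgeR adjusted p = 3.22e-15). Tnfsf15, which encodes TL1A, had 4.60, 4.51 and 5.14 CPM in ctrl-Treg and 0.857, 0.659 and 0.927 CPM in Sora-Treg cells, 5.79-fold lower (log2 -2.53 ± 0.21; edgeR adjusted p = 6.12e-10). Both genes separated the groups completely, Tnfsf15 at a low level.

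Tnfsf8, the CD30 ligand gene and the most abundant of these ligands in FPKM, fell from 249, 258 and 256 CPM in ctrl-Treg to 139.9, 150.0 and 145 CPM in Sora-Treg cells, 1.75-fold (log2 -0.81 ± 0.03; edgeR adjusted p = 9.30e-16). Cd40lg, through which T cells help B cells, fell from 48.4, 43.9 and 51.6 CPM in ctrl-Treg to 25.2, 25.2 and 26.4 CPM in Sora-Treg cells, 1.87-fold (log2 -0.90 ± 0.06; edgeR adjusted p = 8.92e-12). These decreases were close to but under the 2-fold limit, and in neither gene did the groups overlap. Tnfsf9, which encodes 4-1BB ligand, was at 13.2, 14.3 and 13.5 CPM in ctrl-Treg and 9.95, 11.4 and 11.5 CPM in Sora-Treg cells (log2 -0.31 ± 0.09; edgeR adjusted p = 0.00437). Its decrease no longer passed without control libraries 1 and 2 (log2 -0.29), and it overlaps Gm11110, which had 536 to 988 counts per library and a log2 fold change of 0.69. Tnfsf14, the gene of LIGHT, had 36.1, 38.9 and 36.4 CPM in ctrl-Treg and 37.0, 32.4 and 34.4 CPM in Sora-Treg cells with overlapping groups (log2 -0.10 ± 0.06; edgeR adjusted p = 0.130), and it passed as lower in 6 of 17 alternatives, at log2 -0.22 under scaling by totals alone.

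Most tested markers of antigen-presenting cells were lower in Sora-Treg cells, beside 29.9% of all tested genes at an adjusted p below 0.05. Of 5 dendritic cell markers listed (Itgax, Flt3, Zbtb46, Xcr1 and Siglech), 4 were analysed, 2 were tested and both of those, Flt3 and Zbtb46, were lower, and their sum ran from 15.3 to 17.2 CPM in ctrl-Treg cells and from 4.28 to 4.86 CPM in Sora-Treg cells. Zbtb46 alone gave 15.7, 16.1 and 14.4 CPM in ctrl-Treg cells, whereas Itgax had 4, 8 and 0 counts and Xcr1 had 1, 0 and 1 counts there. Of 6 tested myeloid markers 5 were lower, all with overlapping groups, whereas Cd68 did not pass the test (log2 0.20 ± 0.12). With control libraries 1 and 2 left out, Cd70 was at log2 -4.96, Tnfsf15 at -2.65 and Tnfsf4 at -1.57, with 1 control library left. The part of dendritic cells in the decreases was not tested, and in bulk RNA fewer cells of a type and less RNA per cell cannot be told apart.

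Of the death ligands Fasl rose, whereas 3 receptors of the death domain group fell. Fasl, whose product kills cells that carry FAS, was low in ctrl-Treg cells with 65, 55 and 40 counts and reached 386, 385 and 419 counts in Sora-Treg cells. On the CPM scale these were 1.65, 1.51 and 1.25 against 12.7, 12.1 and 11.8, 8.21-fold higher (log2 3.04 ± 0.14; edgeR adjusted p = 8.49e-15). This was the largest increase among the members, and the groups were far apart. The natural killer cell markers Klrb1c, Klre1 and Eomes summed to 2.16 to 2.36 CPM in ctrl-Treg cells and to 4.15 to 5.21 CPM in Sora-Treg cells, nearly all of it Eomes, which activated T cells also express. Klrb1c had at most 1 count and Klre1 at most 7 counts in a library, while Eomes had 2.34, 2.20 and 2.10 CPM in ctrl-Treg cells and 4.12, 4.99 and 4.49 CPM in Sora-Treg cells. The summed CD8 T cell markers Cd8a and Cd8b1 ran from 13.2 to 15.1 CPM in ctrl-Treg cells and from 12.6 to 13.8 CPM in Sora-Treg cells. The part of other cytotoxic cells in the Fasl increase was not tested. Tnfsf10, which encodes TRAIL, had 25.2, 27.4 and 28.1 CPM in ctrl-Treg and 27.9, 27.0 and 28.0 CPM in Sora-Treg cells with overlap, and its log2 fold change of 0.04 ± 0.06 turned to -0.07 with scaling by totals alone.

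The death domain group leaves out Tnfrsf25, which is counted with the costimulatory receptors above. Of the 4 tested receptors in this group, 3 fell as DEGs, beside 4.97% of all tested genes. The sum of this group went from 67.0 to 68.3 FPKM in ctrl-Treg cells down to 33.2 to 35.2 FPKM in Sora-Treg cells. Fas had 82.2, 84.4 and 84.8 CPM in ctrl-Treg cells and 38.5, 37.6 and 38.4 CPM in Sora-Treg cells, 2.19-fold lower (log2 -1.13 ± 0.04; edgeR adjusted p = 2.16e-16). Tnfrsf10b, which encodes the mouse TRAIL receptor, had 64.3, 62.3 and 65.7 CPM in ctrl-Treg and 29.8, 30.7 and 30.5 CPM in Sora-Treg cells, 2.11-fold lower (log2 -1.08 ± 0.05; edgeR adjusted p = 4.42e-15). In both genes the groups lay well apart with little spread. The ratio of Fas to Fasl in FPKM was 39.3, 44.1 and 53.5 in the control libraries, against 2.39, 2.46 and 2.58 in the Sora-Treg libraries.

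Tnfrsf21, the gene of death receptor DR6, was low, with 144, 125 and 57 counts in ctrl-Treg and 20, 18 and 16 counts in Sora-Treg cells (log2 -2.42 ± 0.31; edgeR adjusted p = 5.77e-07). Control library 3 lay below the other two, as it did for the myeloid markers, and without control libraries 1 and 2 the log2 fold change was -1.68. Tnfrsf1a, the gene of TNFR1, had 20.1, 21.0 and 21.4 CPM in ctrl-Treg and 24.4, 20.4 and 22.0 CPM in Sora-Treg cells with overlapping groups (log2 0.10 ± 0.07; edgeR adjusted p = 0.283), and its direction turned under scaling by totals alone. Ngfr, which encodes the p75 neurotrophin receptor and completes this group, had at most 4 counts in any library and was not tested.

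Unlike the death receptors, 3 of 4 decoy receptors were higher and none lower in edgeR, beside 29.7% and 29.9% of all tested genes. However, the sum of the decoy receptors moved little. It ran from 17.52 to 18.24 FPKM in ctrl-Treg cells and from 17.95 to 18.61 FPKM in Sora-Treg cells, with overlap. On the TMM-scaled CPM scale the sum ran from 76.7 to 78.8 in ctrl-Treg cells and from 84.5 to 87.4 in Sora-Treg cells, without overlap. Tnfrsf23, whose product binds TRAIL without a death domain, rose from 4.24, 4.15 and 3.79 CPM in ctrl-Treg to 8.47, 9.60 and 9.97 CPM in Sora-Treg cells, 2.30-fold (log2 1.20 ± 0.12; edgeR adjusted p = 1.22e-08). Tnfrsf22, its neighbor on chromosome 7 and also a TRAIL decoy, had 17.8, 17.4 and 19.1 CPM in ctrl-Treg and 21.7, 22.2 and 20.8 CPM in Sora-Treg cells (log2 0.26 ± 0.07; edgeR adjusted p = 0.00374), and this call was lost in 4 of 17 alternatives, among them scaling by totals alone (log2 0.14) and the fit without control libraries 1 and 2 (log2 0.18). Transcripts of Tnfrsf22 and Tnfrsf23 are 91.87% identical over 1451 bases, so reads may have been split between them. Tnfrsf26, which lies beside Tnfrsf22, had 56.3, 55.9 and 53.8 CPM in ctrl-Treg and 56.4, 54.5 and 53.3 CPM in Sora-Treg cells with overlap and a log2 fold change of -0.02 ± 0.04, whose sign turned when Sora library 3 was left out and which passed as lower in 4 of 17 alternatives. Tnfrsf11b, which encodes the RANKL decoy osteoprotegerin, had 20, 5 and 3 counts in ctrl-Treg and 24, 22 and 15 counts in Sora-Treg cells. Its groups overlapped, and its DEG call (log2 1.29 ± 0.53; edgeR adjusted p = 0.0396) was lost in 7 of 14 alternatives, including without control library 2 or 3 and without Sora library 1 or 2. Without control library 1 its log2 fold change was 2.40.

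**Figure D4:**
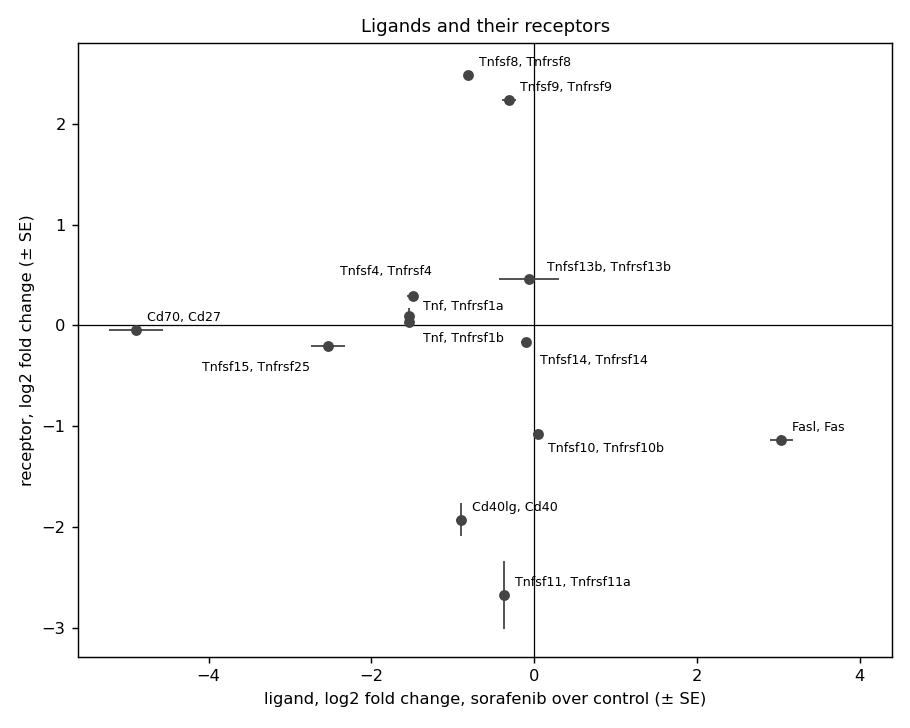
Log2 fold change (Sora-Treg over ctrl-Treg cells) of 12 ligands on the x axis against that of a receptor of each on the y axis, with Tnf drawn for both of its receptors and standard errors as bars. Tnfsf8, Tnfsf9 and Tnfsf4 lie in the upper left, with the ligand lower and the receptor higher, and Fasl with Fas lies farthest to the right, at 3.04 for Fasl and -1.13 for Fas.

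Set beside their receptors, ligands changed in several combinations. Tnfsf9, Tnfsf8 and Tnfsf4 were lower while Tnfrsf9, Tnfrsf8 and Tnfrsf4 were higher. In FPKM the ratio of Tnfrsf9 to Tnfsf9 within a library went from 23.6 ± 0.719 to 139 ± 11.2, that of Tnfrsf8 to Tnfsf8 from 0.192 ± 0.0127 to 1.89 ± 0.0921, and that of Tnfrsf4 to Tnfsf4 from 9.89 ± 0.518 to 34.0 ± 1.24 (SD, n = 3 each). For each of these ratios the groups did not overlap. Fasl rose while Fas fell. Cd40lg with Cd40, Tnfsf11 with Tnfrsf11a, and Tnfsf15 with Tnfrsf25 were lower on both sides. Cd70 and Tnf were DEGs while Cd27, Tnfrsf1a and Tnfrsf1b did not pass the test.

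Receptors best known from B cells were mixed. Tnfrsf13b, which encodes the BAFF and APRIL receptor TACI, had 155, 158 and 161 CPM in ctrl-Treg and 215, 219.9 and 219 CPM in Sora-Treg cells, 1.38-fold higher without overlap (log2 0.46 ± 0.03; edgeR adjusted p = 8.18e-12). It overlaps Usp22, which had 4162 to 5756 counts per library and a log2 fold change of 0.28. Cd40, a receptor of B cells and other antigen-presenting cells, had 7.21, 6.48 and 7.89 CPM in ctrl-Treg and 1.55, 2.10 and 1.99 CPM in Sora-Treg cells, 3.80-fold lower without overlap (log2 -1.93 ± 0.16; edgeR adjusted p = 5.88e-10). Tnfrsf13c, the BAFF receptor gene, had 15, 45 and 39 counts in ctrl-Treg and 5, 29 and 26 counts in Sora-Treg cells, with overlapping groups (log2 -0.62 ± 0.49; edgeR adjusted p = 0.283). Tnfrsf17, the BCMA gene, had 4, 1 and 0 counts in ctrl-Treg and 0, 0 and 0 counts in Sora-Treg cells and was not tested.

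B cell markers were low in both groups. Of Ms4a1, Cd79a, Cd79b, Pax5, Cr2 and Blnk, 4 were tested and all 4 were lower, beside 29.9% of all tested genes. Cd79b, which encodes a B cell receptor subunit, had 8.64, 8.35 and 8.17 CPM in ctrl-Treg and 7.38, 5.83 and 6.49 CPM in Sora-Treg cells (log2 -0.35 ± 0.11; edgeR adjusted p = 0.0102). Cd79a had 31, 53 and 18 counts in the control libraries, against 4, 7 and 3 in the Sora-Treg ones. Cr2 had 3, 3 and 1 counts in the control libraries and 0 in every Sora-Treg library, and was not tested. The part of B cells or dendritic cells in the decrease of Cd40 was not tested.

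The other members were mostly scarce. Tnfsf11, which encodes RANKL, had 55.1, 52.9 and 54.4 CPM in ctrl-Treg and 40.3, 45.2 and 40.2 CPM in Sora-Treg cells without overlap (log2 -0.37 ± 0.05; edgeR adjusted p = 1.43e-06). Its receptor gene Tnfrsf11a (RANK) had 79, 82 and 60 counts in ctrl-Treg and 12, 8 and 11 counts in Sora-Treg cells, also apart (log2 -2.68 ± 0.34; edgeR adjusted p = 3.61e-07). Eda2r, the receptor of the ectodysplasin form EDA-A2, had 21, 23 and 15 counts against a single count in each Sora-Treg library, a ratio of summed counts of 0.0517 (95% exact counting interval 0.0104 to 0.159; edgeR adjusted p = 2.14e-05).

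Tnfrsf19 (TROY) had 25, 29 and 10 counts in ctrl-Treg and 2, 8 and 2 counts in Sora-Treg cells, with the groups just apart (log2 -2.22 ± 0.59; edgeR adjusted p = 0.00246), and the call was lost without control libraries 1 and 2 (log2 -1.32). Tnfrsf12a, which encodes the TWEAK receptor FN14, had 3.78, 2.36 and 3.04 CPM in ctrl-Treg and 6.69, 4.42 and 4.55 CPM in Sora-Treg cells without overlap (log2 0.76 ± 0.19; edgeR adjusted p = 0.00157), and it overlaps Hcfc1r1, which had 631 to 839 counts per library and a log2 fold change of 0.42. Ltbr, the lymphotoxin-β receptor gene, had 22, 10 and 3 counts in ctrl-Treg and 17, 22 and 18 counts in Sora-Treg cells with overlap (log2 0.87 ± 0.49; edgeR adjusted p = 0.138). Without control library 1 it passed as higher, at log2 1.62. Tnfsf13b, which encodes BAFF, had 28, 29 and 22 counts in ctrl-Treg and 14, 25 and 30 counts in Sora-Treg cells (log2 -0.07 ± 0.37; edgeR adjusted p = 0.890). Beside Ngfr and Tnfrsf17, 3 members were too low to be tested, namely Eda with at most 1 count, Tnfsf12 with at most 3 counts and Tnfsf13os with at most 3 counts in any library.

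Several members are neighbors in the genome. Within 200 kb of each other in GRCm38.p6, 11 adjacent pairs of tested members held 18 genes. Both members were called at adjusted p below 0.05 in 6 pairs, where 29 of all 38 tested members were called. Over all tested genes 29.7% were called higher and 29.9% lower. Of the 6 pairs, 4 moved the same way. The other 2, Ltb with Tnf and Tnf with Lta, moved in opposite directions, and both hold Tnf. On chromosome 4, Tnfrsf8 (log2 2.49 ± 0.04) lies 20.3 kb from Tnfrsf1b (log2 0.03 ± 0.03), whereas Tnfrsf4 and Tnfrsf18, 9.71 kb apart, both rose. Also on chromosome 4, Tnfsf15 and Tnfsf8 lie 86.1 kb apart and both fell. On chromosome 17, Cd70 lies 38.2 kb from Tnfsf9 and 39.7 kb from Tnfsf14, whose log2 fold changes were -0.31 ± 0.09 and -0.10 ± 0.06 beside -4.89 ± 0.33 for Cd70.

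**Figure D5:**
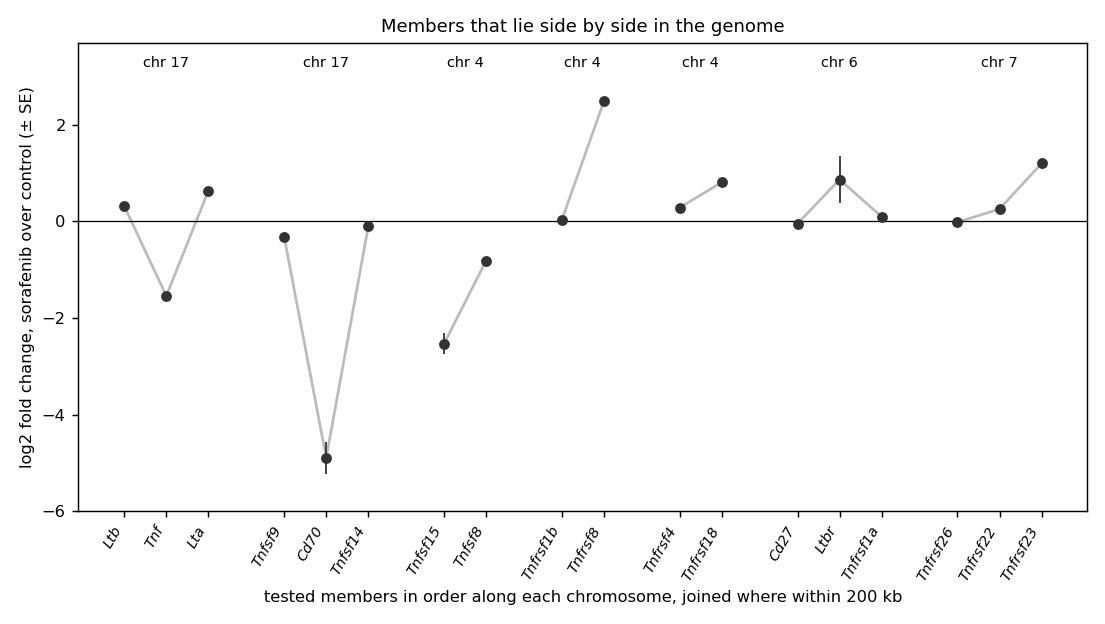
Log2 fold change (Sora-Treg over ctrl-Treg cells) on the y axis, with standard errors as bars, of the 18 tested members that have another tested member within 200 kb, in chromosomal order on the x axis and joined by grey lines. Tnf dips to -1.54 between Ltb and Lta, and Cd70 dips to -4.89 between Tnfsf9 and Tnfsf14.

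Genes that act downstream of the receptors changed in both directions. Of 42 tested genes of receptor signaling (TRAFs, death domain adaptors, caspase-8 and its inhibitor, necroptosis kinases, ubiquitin enzymes, IκB kinases and ligand-cleaving proteases), 16 were higher (29.7% of all tested genes) and 17 lower (29.9%), 1 being a DEG in each direction (6.3% and 4.97% of all tested genes), with a median log2 fold change of 0.00, the same to that precision as for all tested genes. Mlkl, the executor of necroptosis, had 1.52, 1.51 and 1.47 CPM in ctrl-Treg and 3.26, 3.42 and 4.30 CPM in Sora-Treg cells (log2 1.28 ± 0.21; edgeR adjusted p = 1.26e-05). Tnip3, which encodes a partner of the NF-κB inhibitor A20, had 6.98, 6.24 and 5.26 CPM in ctrl-Treg and 1.91, 1.57 and 1.40 CPM in Sora-Treg cells (log2 -1.93 ± 0.18; edgeR adjusted p = 3.10e-09). Neither overlapped between groups. Below 2-fold, the adaptor gene Traf1 (log2 0.64 ± 0.03), Tnip2 (log2 0.56 ± 0.04) and the necroptosis kinase gene Ripk3 (log2 0.44 ± 0.05) were higher, and Siva1 (log2 -0.97 ± 0.08), which encodes a CD27-binding protein, Traf5 (log2 -0.71 ± 0.08) and Rbck1 (log2 -0.42 ± 0.03), which encodes a subunit of the linear ubiquitin ligase, were lower.

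A list of genes that TNF or NF-κB can induce, which shares Traf1, Tnfaip3 and Birc3 with the receptor signaling list, had 21 tested genes. Of these, 7 were higher (29.7% of all tested genes) and 14 lower (29.9% of all tested genes). Among the 14, 6 were DEGs, beside 4.97% of all tested genes that were DEGs lower. The median log2 fold change of the list was -0.54, beside -0.0035 over all tested genes. Csf1, the gene of macrophage colony-stimulating factor, had 3.02, 3.35 and 3.85 CPM in ctrl-Treg and 0.593, 0.439 and 0.421 CPM in Sora-Treg cells (log2 -2.81 ± 0.27), and the chemokine gene Ccl5 had 16.7, 16.6 and 11.8 CPM in ctrl-Treg and 1.42, 4.05 and 1.83 CPM in Sora-Treg cells (log2 -2.63 ± 0.21). Nfkbid, which encodes an atypical IκB protein, had 90.1, 84.5 and 87.5 CPM in ctrl-Treg and 26.7, 22.5 and 23.7 CPM in Sora-Treg cells (log2 -1.85 ± 0.05), and Nfkb2, the noncanonical NF-κB subunit gene, had 578, 581 and 581 CPM in ctrl-Treg and 271, 274 and 276 CPM in Sora-Treg cells (log2 -1.08 ± 0.03). All 4 of these separated the groups. The other DEGs were scarce. Tnfaip2 (log2 -1.67 ± 0.47) overlapped between groups, with 67, 67 and 15 counts in ctrl-Treg and 14, 20 and 7 counts in Sora-Treg libraries, and was high in the control libraries that were high in myeloid markers. Its call was lost in 2 of 14 alternatives, among them the fit without control libraries 1 and 2 (log2 -0.14). Cxcl10 (log2 -1.46 ± 0.57) had 12, 19 and 12 counts in ctrl-Treg and 2, 8 and 4 counts in Sora-Treg cells, and its call was lost in 7 of 14 alternatives.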

How the data were processed

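Members, gene lists and alternatives were chosen with earlier results of these data known. Sample titles gave the group and number of each library. The authors deposited 2 tables of the same 6 libraries, raw counts and FPKM, both by gene symbol. The submitters' processing notes name fastp, HISAT2, HTSeq and GRCm39, whereas the methods of the study name Bowtie2 and GRCm38, and the use of strand was not stated. Count, deposited FPKM and library total implied the same gene length in every library (largest relative spread 1.64e-06 over 22939 genes). The FPKM values are therefore no separate measurement.

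Counts were fitted with edgeR 4.0.16 (R 4.3.3; TMM scaling, filterByExpr with a minimum count of 10, quasi-likelihood F test, group as the only term) over all 13463 tested genes, with Benjamini-Hochberg adjustment. CPM values were computed on TMM-scaled library totals. DEGs had an adjusted p below 0.05 and over 2-fold change. The rule for named genes was to account for every member, with each library's value for called members, and to name at most 8 genes of each other list by the size of their change, from the DEGs or, with fewer than 4 DEGs, from all genes at adjusted p below 0.05. Alternatives used other scalings and filters, DESeq2 1.42.0, limma 3.58.1 on log2(FPKM + 1) or log2(FPKM + 0.1), a replicate block and each library left out. The edgeR step was tested on simulated data with 13482 genes. There 200 genes with a mean of at least 1 CPM were changed, with the same spread set for every gene. It recovered 100% of these 2-fold changes, and 4.76% of its calls were false. In the data 8022 genes were called, so the setting differs, and the recovery does not cover members below 1 CPM. Positions and promoters came from RefSeq (GRCm38.p6), matched by symbol for 43 and 32 members, and transcript identity from blastn 2.17.0 on GENCODE M21 transcripts. Total counts per library (30727686 to 37717324) limit precision most for members with few counts. A further B cell marker is not reported here.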

Additional observations from a re-analysis of the deposited data

How the results depend on the processing

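Of 38 tested members, 24 kept their direction and their side of an adjusted p of 0.05 in every alternative that tested them, including Tnfrsf13c, which never passed. The DEGs among them include Tnfrsf9 (log2 fold change 2.12 to 2.25), Tnfrsf8 (2.28 to 2.51), Fasl (1.98 to 3.28), Tnf (-1.66 to -1.50), Fas (-1.25 to -1.12) and Cd70 (-5.70 to -2.71). With limma on log2(FPKM + 1), with or without a filter, 3 members were DEGs higher and 6 lower, and on log2(FPKM + 0.1) 7 were lower. The filtered limma fits tested 29 of the 38 members and the fit without a filter tested 43. Of the 16 DEGs, 9 were DEGs in every alternative that tested them and 14, without Tnfrsf11b and Tnfrsf19, in every one but limma on FPKM, where the log2 fold change without a filter was 0.65 for Tnfrsf23, -0.68 for Tnfrsf21, -0.71 for Tnfsf15, -0.34 for Tnfrsf11a and -0.13 for Eda2r. Without the filter, 10 receptor signaling genes were higher in limma. Tnfrsf1a turned to -0.020 with library totals alone and to -0.021, -0.023 and -0.021 with limma on log2(FPKM + 1), log2(FPKM + 0.1) and log2(FPKM + 1) without a filter. Tnfrsf1b turned to -0.0061 with upper quartile scaling, to -0.084 with totals alone and to -0.082, -0.084 and -0.082 in the same limma fits. Tnfsf10 turned to -0.074 with totals alone, to -0.063, -0.073 and -0.063 in limma and to -0.019 without control libraries 1 and 2. In that last fit, chosen after the data were seen, Tnfrsf26 turned to 0.027 and Tnfsf13b to 0.022. With each library left out in turn, Tnfrsf26 ranged from -0.037 to 0.0046, Tnfsf10 from -0.00055 to 0.070 and Tnfsf13b from -0.23 to 0.15. None of these 5 genes passed the test with the settings of the report, and of them only Tnfrsf1b passed where it turned, with totals alone and in limma without a filter. The cause was not tested.

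With each library left out in turn, 4 to 6 members were DEGs higher and 11 were lower each time. With a replicate block, 5 members were DEGs higher and 11 lower, as without it, and the block changed no member count. Deviations of libraries with the same number correlated at -0.044, 0.059 and 0.030, so the numbers were not taken to pair the libraries. Depth limits members with few counts, such as Eda2r, Tnfrsf11b, Tnfrsf19 and Ltbr.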
